A study of Mus musculus with 10 samples.

Results

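H3K4me2 and H3K27me3 were followed at the transcription start sites (TSS) of 9 genes of the photoreceptor ribbon synapse, Cacna1f, Cacna2d4, Cabp4, Ctbp2, Bsn, Pclo, Rims2, Slc17a7 and Unc119, during maturation of the mouse retina. They were found by symbol in the deposited table, ignoring case and the number that marks repeated entries, and all 9 were found. They account for 11 of its 25152 entries and for 9 of its 20044 symbols. Ctbp2 has 2 entries with different values. Pclo has 2 entries with the same values, which were counted once, so that 10 entries are distinct.

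Chromatin was immunoprecipitated from retinas of Mus musculus in the late embryo (E17.5) and on postnatal days 1, 7 and 15 (PN1, PN7, PN15), and the DNA was sequenced (ChIP-Seq). H3K4me2 is a histone modification of active and poised promoters, and H3K27me3 is the modification laid down by Polycomb at repressed genes. There was 1 library for each of 2 marks at each of 4 stages, 8 in all, each from at least 20 pooled retinas, and neither a second library nor another treatment stands beside any of them. The paper describes untreated wild type C57BL/6j mice, whereas the strain label of every library names the Pde6b (rd1/rd1) mutant, which the protocol text gives as a control for the removal of rods. Of the 10 sample titles 1 names rd1, that of a sample not analysed here, and the paper was followed. The catalogue numbers that the labels give for the 2 antibodies are swapped relative to the paper, so marks were assigned by the sample titles and which numbers are right was not determined. The titles write E17 for the earliest stage, and the header of the PN7 column of H3K27me3 has an added letter b. The 2 remaining samples of the series, H3K4me2 from rd1/rd1 retina and an anti-GFP control, were not analysed here.

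The ribbon synapse is the terminal by which rods and cones signal to bipolar and horizontal cells. A plate-like ribbon tethers synaptic vesicles above a row of L-type calcium channels, which stay partly open in darkness and sustain a steady release of glutamate, and light slows that release. In the mouse retina rods are the most numerous cells, and their terminals form in the first weeks after birth. Cacna1f encodes the pore of the channel, Cacna2d4 its auxiliary subunit and Cabp4 the calcium-binding protein that regulates its opening. Ctbp2 encodes both a transcriptional corepressor and, from a start of its own, RIBEYE, the main protein of the ribbon. Bassoon (Bsn) anchors the ribbon to the active zone, Piccolo (Pclo) is its large relative, and Rims2 is an active zone scaffold that acts on calcium entry and vesicle priming. Slc17a7 encodes the vesicular transporter that loads glutamate into vesicles, and Unc119 is a carrier of acylated proteins such as transducin that also occurs at the ribbon synapse.

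Each value is a normalized occupancy. It is the number of reads within 2.5 kb on either side of the TSS, which the authors scaled to the mapped total of that library and rounded to a whole number. Every window is 5 kb, so levels can be compared between genes as well as between stages. No whole number below 110 is missing from any library, so 1 read was worth at most 1 unit, and an exact Poisson interval that takes 1 unit as 1 read is the widest that counting could give. All intervals of single values below are 95% intervals of this kind, widened by 0.5 for rounding. The 95% intervals of folds were not widened for rounding, and both kinds cover counting error only. With 1 library per mark and stage there was no replicate error and no test between stages. A change is therefore given as both values, the fold between them with its counting interval (exact, from the binomial distribution of the pair), and the difference of log2(value + 1). It was called higher or lower at a size of 2-fold on that log2 scale, and the percentage of all 20044 symbols called in the same way is given for comparison. A gene with several entries entered the counts with the entry of the largest sum, which for Ctbp2 is the second.

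The libraries did not have the same shape. The H3K4me2 library of PN7 stood apart, with 19.5% of its entries at 0 against 0.362 to 2.52% in the other H3K4me2 libraries, and the median change of all symbols was -0.50 from PN1 to PN7 and 1.0 from PN7 to PN15 on the log2 scale. The change from PN1 to PN15 does without it. Over the whole course, from E17.5 to PN15, the median change of all symbols was 0.13 for H3K4me2 and 0.00 for H3K27me3. As a background level the 99th percentile of 1047 olfactory receptor (Olfr) symbols in the same library was used, since these genes are silent in retina. It was 6.0, 9.0, 1.0 and 9.54 for H3K4me2 in the order of the stages, and 33.5, 44.1, 40.5 and 41.5 for H3K27me3. Silent genes can carry H3K27me3, and the highest Olfr values for it were 150, 207, 204 and 89. A value below the level is therefore not absence of H3K27me3. The 99th percentile of vomeronasal receptor symbols was lower for this mark, at 20.2, 17.4, 18.4 and 27.2. The labelled tissue was checked against markers: the rod markers Sag, Gnat1, Pde6b, Nrl, Nr2e3 and Crx each had more H3K4me2 at PN15 than in the embryo, and Hbb-b1 and Alb, markers of blood and liver, were at 5 or less in H3K4me2 in all 4 libraries. Myod1, a muscle regulator, was at 12 to 18 in H3K4me2. Retina is a mixture of cells, so a larger share of rods and a higher occupancy per cell cannot be told apart in any of these values.

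The promoters of the genes on which the results turn are shown to let their base composition be seen beside their marks. They come from the RefSeq promoter table (GRCm38.p6), were matched by symbol for 6 of the 9 genes, and each was found once in mm9 by its sequence. Cabp4, Cacna2d4 and Rims2 have no entry in it. Each line gives the bases before the RefSeq start on the strand of the gene, with a stretch inside an annotated exon left out, and capitals mark CpG dinucleotides. Slc17a7 is at chr7:52419041-52419290 (plus strand), Cacna1f at chrX:7183979-7184208 (plus), Unc119 at chr11:78156747-78156983 (plus, the first of 3 starts), Bsn at chr9:108092716-108092964 (minus) and Pclo at chr5:14514668-14514917 (plus).
Slc17a7: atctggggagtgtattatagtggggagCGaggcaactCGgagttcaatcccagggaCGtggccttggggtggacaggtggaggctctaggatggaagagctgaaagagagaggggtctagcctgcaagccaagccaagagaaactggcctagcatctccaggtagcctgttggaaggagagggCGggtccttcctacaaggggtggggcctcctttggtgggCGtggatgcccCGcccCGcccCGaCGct
Cacna1f: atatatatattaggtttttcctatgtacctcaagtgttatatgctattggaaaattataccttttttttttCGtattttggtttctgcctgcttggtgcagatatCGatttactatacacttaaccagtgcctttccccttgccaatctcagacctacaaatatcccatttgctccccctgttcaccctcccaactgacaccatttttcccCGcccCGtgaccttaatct
Unc119: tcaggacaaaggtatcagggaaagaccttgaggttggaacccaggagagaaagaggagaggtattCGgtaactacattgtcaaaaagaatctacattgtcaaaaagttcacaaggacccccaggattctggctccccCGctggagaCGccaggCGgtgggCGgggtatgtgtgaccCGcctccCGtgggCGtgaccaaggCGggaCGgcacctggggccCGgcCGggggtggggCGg
Bsn: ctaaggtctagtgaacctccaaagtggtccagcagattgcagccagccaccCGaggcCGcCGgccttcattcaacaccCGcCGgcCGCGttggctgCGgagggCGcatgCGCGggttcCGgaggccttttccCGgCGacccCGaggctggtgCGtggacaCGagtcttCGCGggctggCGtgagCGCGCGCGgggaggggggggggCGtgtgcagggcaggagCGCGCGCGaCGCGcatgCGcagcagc
Pclo: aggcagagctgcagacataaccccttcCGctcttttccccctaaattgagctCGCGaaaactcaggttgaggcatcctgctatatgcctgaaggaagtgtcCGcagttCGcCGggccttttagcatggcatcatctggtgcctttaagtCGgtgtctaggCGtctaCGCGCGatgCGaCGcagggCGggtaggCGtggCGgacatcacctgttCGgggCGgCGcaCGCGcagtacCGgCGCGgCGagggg

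Bsn and Pclo have CpG-rich promoters, whereas those of Slc17a7 and Cacna1f lay nearer to the median of all promoters. In the 250 bases before the start, Bsn held 32 CpG and Pclo 25, which put them at percentiles 95.7 and 89.9 of the 32851 promoters of the table. The first start of Unc119 held 15, and its 2 inner starts 2 each. Slc17a7 held 9, the starts of Ctbp2 7 and 2, and Cacna1f 4, against a median of 6 over all promoters. The ratio of observed to expected CpG was 1.07 in Pclo, 1.01 in Bsn, 0.656 in Unc119, 0.408 in Slc17a7 and 0.403 in Cacna1f, with a median of 0.373 over all promoters.

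4 short motifs were searched on both strands of the 250 bases, and a match describes letters and not a site. GGGCGG, the GC box, occurred 3 times in Slc17a7, 2 times each in Pclo and the first start of Unc119, and 1 time in Cacna1f. It did not occur in Bsn or in either Ctbp2 start, and 32.7% of all promoters held it. TAATCC, the core recognised by the photoreceptor homeodomain factor Crx, was present in 1 of the 2 Ctbp2 starts and at the second start of Unc119 only, and in 6.25% of all promoters. TGCTGA, the half-site of Maf-type leucine zipper factors such as Nrl, occurred once, at the third start of Unc119, and in 16.1% of all promoters. CANNTG, the E-box, occurred in all of the members' promoters except those of Bsn and the third Unc119 start, and in 66.2% of all promoters.

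**Figure D1:**
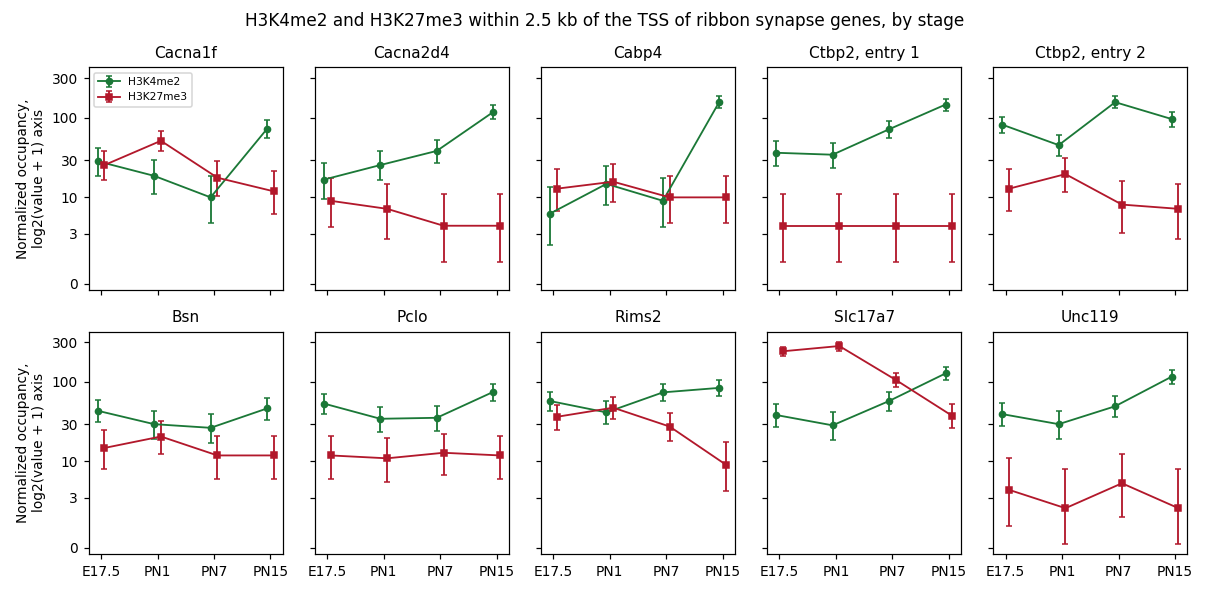
Normalized occupancy of H3K4me2 (green circles) and H3K27me3 (red squares) by stage for the 10 distinct entries, on a log2(value + 1) axis, with 1 library per point and bars for the widest counting interval (95%). H3K4me2 at Cabp4 went from 6 at E17.5 to 156 at PN15, and H3K27me3 at Slc17a7 from 234 to 38.

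The genes of the calcium channel were below the median of all symbols in H3K4me2 at E17.5 and above it at PN15, with the largest difference at Cabp4. Cabp4 (chromosome 19, 4135425 to 4139609, minus strand in mm9) had an H3K4me2 occupancy of 6, 15 and 9 in the libraries of E17.5, PN1 and PN7, and of 156 in that of PN15. At E17.5 it did not exceed the background level, and in the first 3 libraries it was below the median of all symbols, which was 41, 27 and 24 in them. The counting interval was 1.91 to 13.7 in the embryo and 132 to 183 at PN15. Occupancy was thus 26.0-fold higher at PN15 than at E17.5, with an interval of 11.7 to 71.9, and its log2 change of 4.49 was equalled or passed by 4 symbols of the table, counts of this kind including the gene itself. From PN7 to PN15 it was 17.3-fold higher (8.90 to 38.6), and from PN1, without the PN7 library, 10.4-fold (6.11 to 19.0). The log2 change from PN7 to PN15 was 3.97 as deposited, 3.21 with libraries scaled to the same median and 2.89 after quantile normalization. H3K27me3 at Cabp4 was 13, 16, 10 and 10 in the order of the stages and stayed below the background level in all 4 libraries. The start of Cabp4 lies 175 bp from that of Gpr152, an orphan receptor gene on the opposite strand, so that their windows share nearly all bases. Gpr152 gave 7, 13, 8 and 155 for H3K4me2, and these values cannot be assigned to 1 gene of the pair.

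Cacna2d4 (chromosome 6, 119186544 to 119302425, plus strand) had more H3K4me2 at each later stage. Its occupancy was 17, 26, 39 and 117 in the order of the stages. Only the last step had counting intervals that did not overlap, 27.3 to 53.9 at PN7 and 96.3 to 141 at PN15. Without the PN7 library, from PN1 to PN15, occupancy was 4.50-fold higher (2.92 to 7.17). The log2 change from PN7 to PN15 was 1.56, but 0.77 with libraries scaled to the same median and 0.67 after quantile normalization, and the call of that step was lost in both. From E17.5 to PN15 the gain was 6.88-fold (4.12 to 12.2) with a log2 change of 2.71, and 66 symbols changed at least as much. H3K27me3 was 9, 7, 4 and 4. This met the limit for lower with a log2 change of -1.0, but the interval of the fold, 0.100 to 1.59, includes 1, and the call was lost with a pseudocount of 5, with all libraries scaled to the same median, with a limit of 3-fold and with a filter that left out genes under 10 in both libraries.

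Cacna1f (chromosome X, 7184209 to 7212322, plus strand) carried both marks around birth. In the order of the stages, H3K4me2 was 29, 19, 10 and 73, and H3K27me3 was 26, 52, 18 and 12. At PN1 its H3K27me3 exceeded the background level of 44.1, though with an interval of 38.4 to 68.8 that spans it. At E17.5 its value of 26 was below the level of 33.5 but above those given by the 95th percentile of Olfr symbols (21) and by the 99th percentile of vomeronasal receptor symbols (20.2). At PN1 H3K27me3 was above H3K4me2 in units of occupancy. The units of the 2 marks come from different antibodies and libraries and are not a common scale. H3K4me2 was 2.52-fold higher at PN15 than at E17.5 (1.62 to 4.02), and 3.84-fold higher than at PN1 (2.29 to 6.74). H3K27me3 at PN7 was 0.346 of its level at PN1 (0.191 to 0.602), and at PN15 it was 0.462 of its level at E17.5 (0.212 to 0.948). The last of these calls was lost in the alternatives named for Cacna2d4 except the filter on low values, where it was kept. Cacna1f also has a close neighbour: Ccdc22, on the opposite strand, starts 1582 bp away, and its values were 31, 24, 12 and 59 for H3K4me2 and 18, 30, 13 and 6 for H3K27me3. Cacna1f, Cacna2d4 and Cabp4 are on the list of genes with a rod pattern that the study drew up from these same libraries, so their gain is not independent of that choice.

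Of the scaffold genes of the ribbon and the active zone, Bsn, Pclo and Rims2 had H3K4me2 that differed by less than 2-fold between E17.5 and PN15, while the entries of Ctbp2 differed from each other. Ctbp2 (chromosome 7, 140179246 to 140316037, minus strand) had H3K4me2 at both entries, but not in the same order of stages. The first entry had more at each stage after birth, with 35 at PN1 and then 72 and 144, after 37 in the embryo, a 3.89-fold difference over the whole course (2.70 to 5.75). The second was 82, 46, 154 and 96, with its highest value at PN7, percentile 99.7 of that library, and a 1.17-fold difference over the course (0.863 to 1.59). Without the PN7 library, from PN1 to PN15, the second entry was 2.09-fold higher (1.45 to 3.03). H3K27me3 was 4 in all 4 libraries at the first entry and 13, 20, 8 and 7 at the second, below the background level throughout. The table gives no coordinates, so which of the annotated starts each entry stands for, and with it which of them belongs to RIBEYE, was not determined. The 2 starts of Ctbp2 in the RefSeq table are 66613 bp apart, so their windows do not overlap. The annotation also names Fgfr2 a transcript that starts 2 bp from a Ctbp2 start. The table's Fgfr2 entry, with 53, 82, 113 and 86 for H3K27me3, has other values than either Ctbp2 entry, and its start is not given.

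Bsn (chromosome 9, 107998354 to 108092715, minus strand) kept nearly the same rank. H3K4me2 was 44, 30, 27 and 47, which put the gene between percentiles 52.7 and 54.2 of all symbols in each of the 4 libraries. The difference between E17.5 and PN15 was 1.07-fold (0.693 to 1.65). H3K27me3 was 15, 21, 12 and 12, and the 4 counting intervals overlapped.

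Pclo (chromosome 5, 14514918 to 14863457, plus strand) resembled Bsn with a somewhat higher end. H3K4me2 was 54, 35, 36 and 75, and H3K27me3 was 12, 11, 13 and 12. H3K4me2 at PN15 was 1.39-fold that of E17.5, with an interval of 0.966 to 2.01 that includes 1, and 2.14-fold that of PN1 (1.42 to 3.30). Bsn and Pclo, the genes of 2 related proteins, were also each other's nearest members over the 8 libraries, with a distance of 1.26 between their log2(value + 1) profiles. Each was nearer to a symbol outside the members, Bsn to Rint1 (0.396) and Pclo to Pttg1ip (0.321). Bsn was also the nearest member of Cacna1f and Rims2, and Pclo that of Ctbp2, so this nearness is not particular to the pair.

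Rims2 (chromosome 15, 39029878 to 39513486, plus strand) changed mainly in H3K27me3. H3K27me3 was 37, 48, 28 and 9 in the order of the stages, above the background level in the 2 earliest libraries and below it in the 2 later ones. The intervals of the 2 earliest values, 25.6 to 51.6 and 35 to 64.2, span that level. At PN15 it was 0.243 of its level at E17.5 (0.103 to 0.513), a log2 change of -1.93, and 405 symbols fell at least as far. Most of the difference lay between PN7 and PN15, where it was 0.321 (0.133 to 0.701). H3K4me2 was 58, 42, 74 and 84 and did not reach the limit between any 2 neighbouring stages. The annotated starts of Rims2 span 461453 bp, and the single entry of the table stands for only 1 of them.

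Slc17a7 (chromosome 7, 52419291 to 52431508, plus strand) had much H3K27me3 early and much H3K4me2 late. It had the most H3K27me3 of the 9 genes in each library, with 234 (205 to 267) in the embryo, 271 (239 to 306) at PN1, 105 (85.4 to 128) a week after birth and 38 (26.5 to 52.7) at PN15. It exceeded the background level in the first 3 libraries. At PN15 its interval spans the level of 41.5, and the value is above the levels given by the 95th percentile of Olfr symbols (29.0) and the 99th percentile of vomeronasal receptor symbols (27.2). From E17.5 to PN15 H3K27me3 came to 0.162 of its first value (0.112 to 0.230), a log2 change of -2.59, and 98 symbols fell at least as far. The fall from PN1 to PN7 was to 0.387 (0.306 to 0.487) and that from PN7 to PN15 to 0.362 (0.243 to 0.529), so both steps were called. H3K4me2 was 39, 29, 58 and 126 in turn. It was 3.23-fold higher at PN15 than at E17.5 (2.24 to 4.75), and 4.34-fold higher than at PN1 (2.88 to 6.75). Both marks were above their background levels in the first 3 libraries. Whether they lay on the same nucleosomes or in different cells of the pooled tissue was not measured.

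Unc119 (chromosome 11, 78156984 to 78162666, plus strand) had more H3K4me2 at PN15, with almost no H3K27me3 at any stage. H3K4me2 was 40, 30, 50 and 115, and PN15 was 2.88-fold above E17.5 (1.99 to 4.23) and 3.83-fold above PN1 (2.55 to 5.94). H3K27me3 was 4, 2, 5 and 2. The differences between 2 and 5 passed the 2-fold limit in both directions, but their intervals, 0.409 to 26.3 and 0.0381 to 2.44, include 1, and at this level no change was detectable.

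**Figure D2:**
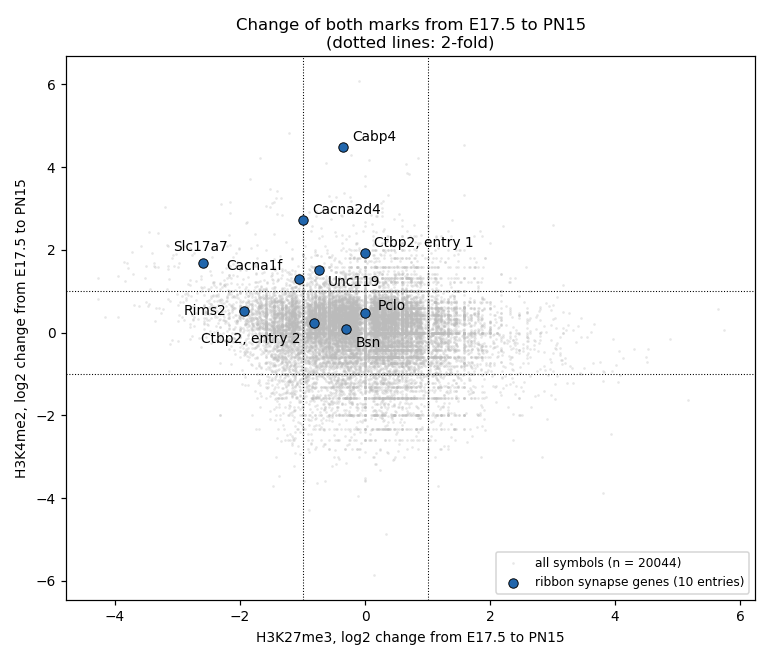
Log2 change from E17.5 to PN15 of H3K27me3 (horizontal) against H3K4me2 (vertical), both as log2(value + 1), for all 20044 symbols (grey) and the 10 distinct entries (blue), with dotted lines at 2-fold. Slc17a7 lay at -2.59 and 1.67, Cabp4 at -0.35 and 4.49, and Bsn, Pclo and the second Ctbp2 entry inside the 2-fold limits of both marks.

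From E17.5 to PN15 H3K4me2 was called higher at 5 of the 9 genes, Cabp4, Cacna2d4, Slc17a7, Unc119 and Cacna1f, against 7.84% of all symbols. None was called lower, against 11.7%. The median log2 change was 1.30 over the 9 genes and 0.13 over all symbols. The fold intervals of Bsn, Pclo and the second Ctbp2 entry include 1. With the first entry of Ctbp2 in place of the second the count was 6. The count was 3 with a limit of 3-fold, against 2.37% of all symbols. Over the same interval H3K27me3 was called lower at 4 of the 9, Slc17a7, Rims2, Cacna1f and Cacna2d4, against 16.1% of all symbols, and higher at none, against 12.2%. It was 2, Rims2 and Slc17a7, with a pseudocount of 5, with libraries scaled to the same median or with a limit of 3-fold, against 9.57%, 11.7% and 4.66% of all symbols. Cacna1f, Cacna2d4 and Slc17a7 were called in both marks.

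The single steps differed. From E17.5 to PN1 H3K4me2 was called higher at Cabp4 only, against 8.23% of all symbols, and lower at none, against 6.78%. The fold interval of that call, 0.917 to 7.86, includes 1, and the call was lost with a pseudocount of 5. From PN1 to PN7 it was called higher at Ctbp2 only, against 4.09%, and lower at none, against 36.8%. With each change centred on the median of all symbols it was higher at 5, Cacna2d4, Ctbp2, Rims2, Slc17a7 and Unc119, in this step, against 13.7%. The largest number, 6 of 9 from PN7 to PN15, stood against 52.3% of all symbols, and none was called lower, against 2.06%, so that a call in this interval says little about these genes. With the same centring it was 2, Cacna1f and Cabp4, against 15.9%, and from PN1 to PN15, without the PN7 library, 7 were called higher against 21.3%. The 2 that were not called in that last comparison were Bsn and Rims2.

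H3K27me3 was called at none of the 9 genes between E17.5 and PN1, against 5.77% of all symbols higher and 8.27% lower. Between PN1 and PN7 it was lower at Cacna1f, the second Ctbp2 entry and Slc17a7, against 13.5%, and higher at Unc119, against 6.99%. Between PN7 and PN15 it was lower at Rims2, Slc17a7 and Unc119, against 9.70%, and higher at none, against 15%. Those calls of Unc119 rest on values of 5 or less. Rims2, called in the later interval only, was also lower at PN7 than at PN1, at 0.583 of its level (0.352 to 0.949), and with a limit of 3-fold no gene was called lower in either interval.

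Set against the background level, H3K4me2 was present at 8 of the 9 genes at E17.5, against 72.6% of all symbols, Cabp4 being the exception, and at all 9 in each later library, against 69.0%, 72.1% and 68.3%. The interval of Cabp4 at PN1, 8.02 to 25.4, spans the level of 9.0, and its value of 9 at PN7 stands against a level of 1.0. H3K27me3 exceeded its background level at 2 genes in the embryo (against 17.1% of all symbols), then at 3 (15.2%), 1 (15.9%) and none (13.8%) in the libraries from PN1 on. Cacna2d4, Cabp4, Ctbp2, Bsn, Pclo and Unc119 exceeded it in no library, as did 79.9% of all symbols. With the 99th percentile of vomeronasal receptor symbols as the level, Bsn and Ctbp2 exceeded it at PN1, where the count was 5 in place of 3, against 30.4% of all symbols. The stage of highest H3K4me2 was PN15 for 8 of the 9, against 56.7% of the 15162 symbols above background in at least 1 library, and PN7 for Ctbp2. For each of the 3 genes with H3K27me3 above background its highest value was at PN1, as for 53.5% of 4024 such symbols.

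**Figure D3:**
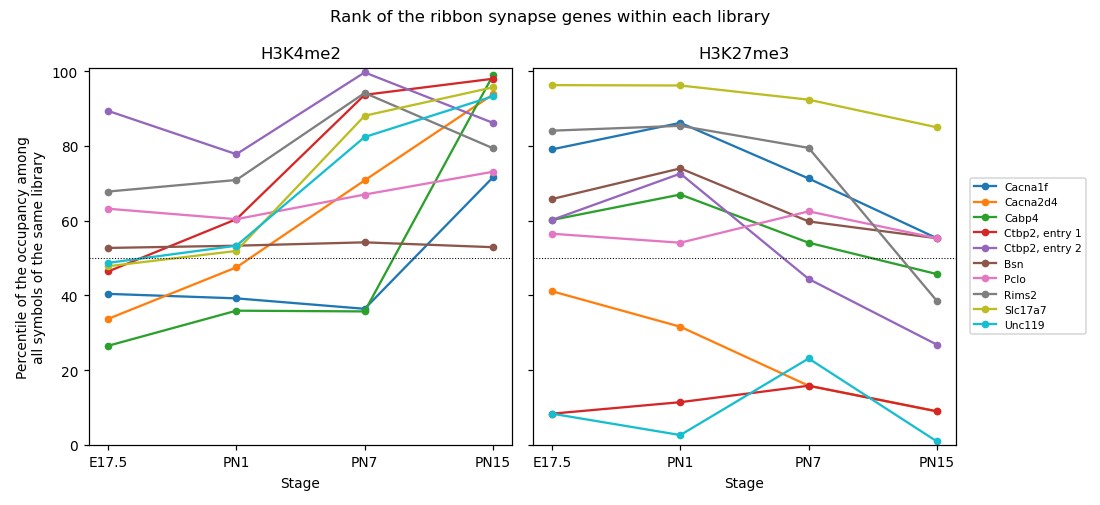
Percentile of each entry's occupancy among all symbols of the same library, by stage, for H3K4me2 (left) and H3K27me3 (right), with a dotted line at the median. Cabp4 went from percentile 26.5 of H3K4me2 at E17.5 to 98.9 at PN15, while Bsn stayed between 52.7 and 54.2.

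The rank of a gene within its own library does not depend on the scaling between libraries. By H3K4me2 at PN15 the order was Cabp4 (percentile 98.9 of all symbols), the first Ctbp2 entry (98.0), Slc17a7 (95.7), Cacna2d4 (93.8), Unc119 (93.3), the second Ctbp2 entry (86.2), Rims2 (79.4), Pclo (73.1), Cacna1f (71.6) and Bsn (52.9). Neighbours in this order had overlapping counting intervals, so the order between them is not resolved, except that the ends of the range are far apart, with 132 to 183 at Cabp4 and 34.1 to 63.1 at Bsn. At E17.5 the order was different, with the second Ctbp2 entry first at percentile 89.4 and Cabp4 last at 26.5. By H3K27me3 Slc17a7 ranked first of the 9 genes in all 4 libraries, from percentile 96.3 at E17.5 to 85.0 at PN15. Rims2 went from 84.1 to 38.5 and Cacna1f from 79.1 to 55.3.

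CpG content divides promoters by H3K4me2 in these libraries, and the genes did not all lie near the level of promoters like their own. Among symbols with 1 promoter in the table, the median H3K4me2 at PN15 was 5 for those with 3 to 5 CpG, 35 for 6 to 10, 65 for 11 to 20 and 78 for 21 or more. Cacna1f, with 4 CpG, had 73, though part of its window is shared with that of Ccdc22, and Slc17a7, with 9, had 126. Pclo, with 25, had 75, and Bsn, with 32, had 47, below the median of its class. In H3K27me3 at E17.5 the class of Slc17a7 had a median of 13, where that gene had 234.

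Most of these genes belong to families that also serve other synapses or tissues, and 18 such relatives were compared. From E17.5 to PN15 H3K4me2 was called higher at none of the 18, against 7.84% of all symbols, and lower at 3, against 11.7%, with a median log2 change of -0.14, against 0.13 over all symbols and 1.30 over the ribbon genes. The 3 were Rims3 (5 to 1), Slc17a8 (6 to 2) and Slc17a6 (11 to 5), all at low levels. H3K27me3 was above background in all 4 libraries at 8 of the 18 and at none of the 9 ribbon genes, against 10.9% of all symbols, so that for the ribbon genes this is near the share of all symbols. It was called higher at 3, Cabp1 (18 to 86), Cabp5 (6 to 25, below the background level in all 4 libraries) and Cacna1d (45 to 119), against 12.2%, and lower at 2, Rims4 (238 to 84) and Cacna1s (113 to 51), against 16.1%.

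Slc17a6, the transporter gene of ganglion cells and other neurons, had 328, 442, 329 and 183 for H3K27me3 and 11, 9, 2 and 5 for H3K4me2. At PN15 its H3K27me3 was thus 183, where Slc17a7 had 38. The third transporter gene of the family, Slc17a8, had 28, 15, 33 and 28, below the background level in all 4 libraries. Except at PN1 these values were above the 99th percentile of vomeronasal receptor symbols, 20.2 at E17.5, 18.4 at PN7 and 27.2 at PN15. H3K27me3 of both genes was lower at PN15 than at E17.5, by 0.84 on the log2 scale at Slc17a6 and by 2.59 at Slc17a7. Among the calcium-binding proteins Cabp1 had 83, 46, 42 and 43 for H3K4me2, a difference under the limit, and Cabp2 and Cabp5 had the same H3K4me2 at PN15 as at E17.5, 16 and 6. The L-type channel gene Cacna1d had 51, 36, 30 and 50, and 119 for H3K27me3 at PN15 where Cacna1f had 12.

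**Figure D4:**
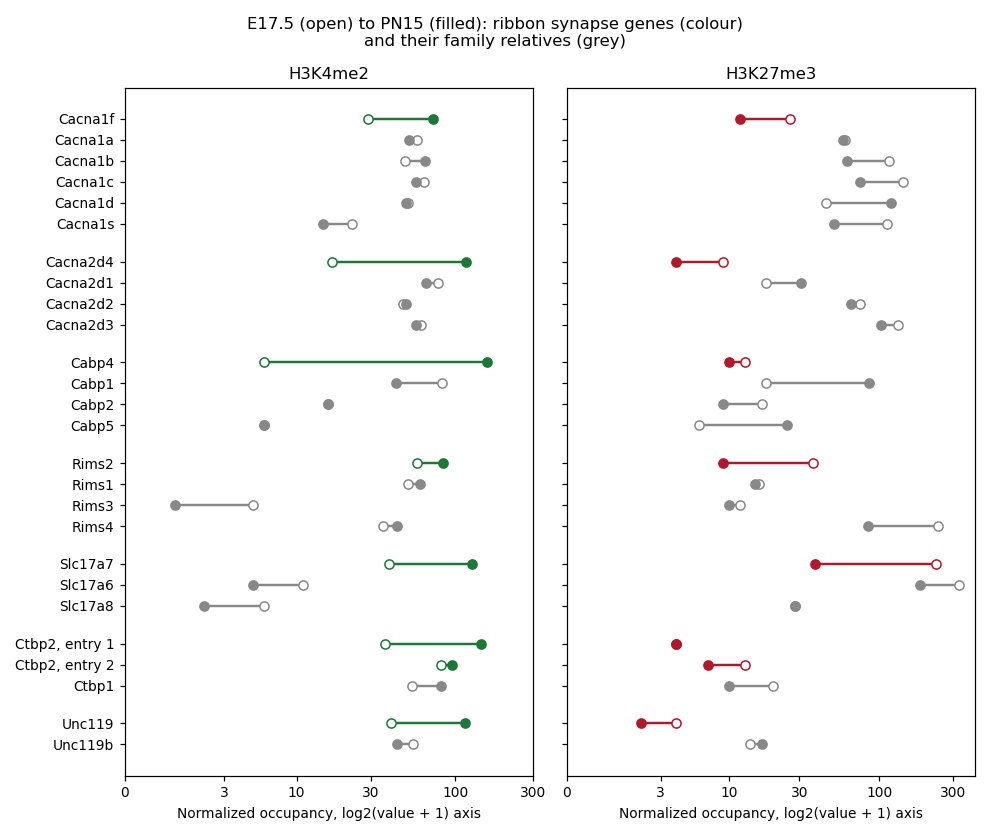
Normalized occupancy at E17.5 (open) and PN15 (filled) on a log2(value + 1) axis for the ribbon synapse genes (green for H3K4me2, red for H3K27me3) and their family relatives (grey), with 1 library per point. H3K4me2 at Cabp4 went from 6 to 156 and that at Cabp5 was 6 at both stages, and H3K27me3 at Slc17a6 was 183 at PN15 against 38 at Slc17a7.

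Other genes of the presynaptic terminal were followed by 2 lists. Of 10 further genes of the ribbon and active zone, 1 of which (Rims1) is also among the relatives, H3K4me2 was called higher at 2 and lower at 1 from E17.5 to PN15, against 7.84% and 11.7% of all symbols, with a median of 0.35. The 2 were the genes of the ribbon synapse complexins, Cplx4 (19, 23, 11 and 101) and Cplx3 (36, 35, 53 and 104), and the 1 was Rimbp2 (53, 28, 35 and 25). H3K27me3 was called lower at 4 of these 10, against 16.1%, among them Unc13a, a vesicle priming factor, with 78, 106, 57 and 18. Erc2 and Cplx3, also among the 4, exceeded the background level in no library. At E17.5 and PN1 both were above the 99th percentile of vomeronasal receptor symbols, 20.2 and 17.4. H3K27me3 was called higher at 1, against 12.2%, which was Erc1, with 8, 12, 76 and 77. Of 10 genes of synaptic vesicles and their fusion, H3K4me2 was called higher at 2, against 7.84%, the SNARE genes Snap25 (63, 52, 56 and 160) and Stx3 (79, 52, 62 and 183), the latter being the syntaxin of ribbon synapses. H3K27me3 was called lower at 7 of those 10, against 16.1%, and higher at none, against 12.2%, with a median of -1.47 against 0.00 over all symbols. Of these 7, Snap25, Syp, Rab3a and Dnm1 were below the H3K27me3 background level in all 4 libraries. Snap25 and Dnm1 were above the vomeronasal percentile at E17.5 and PN1, and Syp and Rab3a were not. The largest of the 7 changes was at the vesicle protein gene Sv2a (35, 43, 15 and 4), and Rims2 and Slc17a7 took the same direction.

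Rod markers are given beside these genes because rods form most ribbon terminals of the mouse retina. From E17.5 to PN15 H3K4me2 was called higher at Sag, Gnat1, Pde6b, Nrl, Nr2e3 and Crx, with log2 changes from 1.70 at Nrl (35 to 116) to 3.17 at Nr2e3 (11 to 107). Of the 9 ribbon genes Cabp4 alone, with 4.49, lay above this range. The markers of other retinal cells did not share this course, since H3K4me2 was called higher at none of Grm6, Vsx1 and Cabp5 (bipolar), Tcfap2b, Gad1 and Slc32a1 (amacrine), Pou4f2 and Thy1 (ganglion) or Rlbp1 and Glul (Mueller glia). It was called lower at Tcfap2b (54 to 18), Gad1 (54 to 23), Pou4f2 (64 to 20) and Rlbp1 (37 to 6). Their part in the values of the ribbon genes was not tested.

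The symbols nearest to each ribbon gene over the 8 libraries, by Euclidean distance of log2(value + 1), differed from gene to gene. For Cabp4, apart from its neighbour Gpr152, they were Pde6a (6, 6, 7 and 118 for H3K4me2, distance 1.42), the rod phosphodiesterase gene, and Aqp1 (1.78). For Cacna2d4 the nearest was Rbp3 (17, 28, 53 and 127, distance 0.767), which encodes the retinoid-binding protein of the photoreceptor matrix. For Slc17a7 they were Cdk5r2 (0.752), Rtbdn (0.855) and Lmo1 (0.904), each with H3K27me3 of at least 225 at E17.5 and at most 39 at PN15. For Cacna1f they were Parp4 (1.18), BC028528 (1.2) and the retinol dehydrogenase gene Rdh12 (1.23). Bsn, Pclo, Rims2, Unc119 and the second Ctbp2 entry had as nearest symbols Rint1 (0.396), Pttg1ip (0.321), Myo10 (0.589), Ddx51 (0.741) and Arid3a (0.876). The median distance to all symbols was between 3.61 for Pclo and 8.67 for Slc17a7.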

How the data were processed

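ChIP-Seq reads were mapped by the authors to mm9 with Bowtie 0.12.4, reads with several positions were removed, and positions were set to the middle of a 190 bp fragment. The deposited values are scores, which the authors made by normalizing the reads within 2.5 kb of each TSS to the total mapped reads and rounding the result. Since depth is not given in the table, no count model was fitted between libraries, and counting intervals took 1 unit as 1 read. All 8 value columns were assigned to a library by title, and 2 samples without a column were left out.

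Values were compared as log2(value + 1) with a limit of 2-fold, and the Olfr background, the percentiles and the counting intervals were computed over all symbols. With 1 library per mark and stage no test was possible. Genes and lists were chosen with earlier results of these data known. Genes were named by rule: the 9 genes, in each list up to 4 genes with the largest change of each mark from E17.5 to PN15, the 3 symbols nearest to each gene, and the cell type markers, some of which are not reported here. Ccdc22 and Fgfr2 (for their nearby starts), Cabp2, Cacna1s, Erc2, Syp, Rab3a and Rims1 were named after their values were seen. Positions come from the GENCODE M1 annotation of mm9. The steps, run with Python 3.11.15, numpy 2.4.6, pandas 2.3.3, scipy 1.17.1 and matplotlib 3.10.9, were tested on simulated data. Alternatives were another pseudocount, 2 scalings, other handling of repeated entries, a filter on low values, other limits and other backgrounds.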

Additional observations from a re-analysis of the deposited data

How the results depend on the processing

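With 1 library per mark and stage there was no replicate to leave out. Counting error weighs most on the low values, such as those of H3K27me3 at Unc119 and Cacna2d4. No paired analysis was possible because no group has a second library. No change of sign occurred among calls. The higher H3K4me2 from E17.5 to PN15 was called at 5 or 6 of the 9 genes in every alternative except a limit of 3-fold, where it was 3 (2.37% of all symbols). In brackets stands the share of all symbols.

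With a pseudocount of 5, H3K4me2 was higher at 0 genes from E17.5 to PN1 (1.09%), and H3K27me3 was lower at 2 from E17.5 to PN15 (9.57%) and higher at 0 from PN1 to PN7 (2.25%). With libraries scaled to the same median, H3K4me2 was higher at 2 genes from E17.5 to PN1 (13.6%), at 2 from PN1 to PN7 (6.43%) and at 2 from PN7 to PN15 (23.7%), where 1 was lower (9.27%), and H3K27me3 was lower at 2 from E17.5 to PN15 (11.7%) and higher at 1 from E17.5 to PN1 (6.82%). Quantile normalization within a mark gave 2 genes higher in H3K4me2 at each single step (4.02%, 8.36% and 7.68%). With each change centred on the median of all symbols, an alternative added after the data were seen, H3K4me2 was higher at 2 (13.7%), 5 (13.7%) and 2 (15.9%) genes in the 3 steps and lower at 1 in the last (17.1%). With only values of at least 10 in the larger library, H3K27me3 was higher at 0 genes from PN1 to PN7 (6.01%).

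With a limit of 1.5-fold, H3K4me2 was higher at 2 (13.7%) and lower at 3 genes (33.7%) from E17.5 to PN1, higher at 4 (11.7%) and lower at 2 (47.6%) from PN1 to PN7, and lower at 1 from PN7 to PN15 (5.03%). H3K27me3 was then higher at 2 (16.1%) and lower at 1 (18.1%) from E17.5 to PN1 and lower at 7 from PN1 to PN7 (26.9%). With a limit of 3-fold, H3K4me2 was higher at 0 genes from E17.5 to PN1 (2.41%) and at 2 from PN7 to PN15 (27.4%), and H3K27me3 was lower at 2 from E17.5 to PN15 (4.66%), higher at 0 (1.85%) and lower at 0 (5.39%) from PN1 to PN7 and lower at 0 from PN7 to PN15 (1.55%). With the 95th percentile of Olfr symbols as background, H3K27me3 exceeded it at 3 genes at E17.5 (24.3%), 2 at PN7 (24.3%) and 1 at PN15 (19.3%), and with the 99th percentile of vomeronasal receptor symbols at 3 genes at E17.5 (25.3%) and at 5 (30.4%), 2 (27.8%) and 1 (20.4%) in the postnatal libraries. The cause of these differences was not tested beyond the construction of each alternative. The log2 changes of single genes moved by less than the counting error in 397 cases and by more in 26. Many of the 397 were fixed in advance, so the 2 counts do not measure stability. Other handling of repeated entries cannot move a gene with 1 entry or with equal entries. The filter on low values leaves the values of the kept genes unchanged.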

Other observations

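Of a list of 12 genes of the synaptic cleft and of the bipolar cell, 11 were found, and Lrit3 was not. The list is not confined to the bipolar cell, since it holds Elfn1, a gene of the rod terminal. Its counts are therefore not those of bipolar cell genes alone. From E17.5 to PN15 H3K4me2 was higher by at least 2-fold at 3 of them, against 7.84% of all symbols, and lower at none, against 11.7%, with a median log2 change of 0.67 against 0.13 over all symbols. The 3 were Elfn1 (54, 35, 123 and 125 in the order of the stages), which encodes the adhesion protein of rod terminals that binds the bipolar glutamate receptor, Gnb3 (25, 26, 43 and 69) and Nyx (1, 9, 2 and 17), which encodes nyctalopin.

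H3K27me3 was lower at 3 of the 11, against 16.1% of all symbols, Elfn1 (298, 426, 165 and 59), Grm6 (451, 457, 293 and 121), the glutamate receptor gene of bipolar cells, and Rgs11 (118, 100, 64 and 43), and higher at 1, Gpr179 (5, 11, 6 and 17), against 12.2%, though Gpr179 was below the background level in all 4 libraries. Grm6, with 30, 16, 20 and 33 for H3K4me2, was above the background level of both marks at PN15. No library has a replicate, so these values were not tested.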
